A study of Mus musculus with 97 samples.

Results

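Ampicillin and vancomycin both stop bacteria from building their cell wall, and the comparison asked what still separates the colon of mice given one from the colon of mice given the other. RNA of the whole colon was sequenced from WT C57BL6/J mice aged 8 to 12 weeks and kept free of specific pathogens. The members are all 18 libraries labelled Ampicillin-PO, Ampicillin-IP and Ampicillin-IV (6 each) and all 15 labelled Vancomycin-PO (6), Vancomycin-IP (4) and Vancomycin-IV (5), together 33 of the 97 libraries of the series. They were chosen by label alone. PO stands for gavage, IP for injection into the peritoneum and IV for injection into a vein. Every dose was 2.5 mg in 100 µl of phosphate buffered saline (PBS), given 2 times a day for 3 days and once on day 4, with tissue taken 4 hours later. The 15 PBS libraries (PBS-PO 6, PBS-IP 4, PBS-IV 5) received the same volume without drug and are given here as a reference level. Whether each replicate was its own mouse is not stated, and the p-values therefore cover the variation among these libraries only, some of which may be technical.

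Ampicillin is a beta-lactam that blocks the enzymes that cross-link peptidoglycan, and it acts on many Gram-positive and some Gram-negative bacteria. Vancomycin is a glycopeptide that binds the end of the peptidoglycan precursor. It acts mainly on Gram-positive bacteria and is poorly absorbed from the gut. The colon epithelium answers bacteria with secreted defence proteins and with DUOX2, a surface oxidase that makes hydrogen peroxide and needs its partner DUOXA2 to reach the cell surface. Monocytes that follow chemokines such as CCL2 out of the blood renew the macrophages of the gut wall.

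The values are TPM, the share of each gene among the transcripts of its library after correction for transcript length, so how deeply a library was sequenced is unknown. Each difference is ampicillin minus vancomycin on the scale log2(TPM + 1), with route as a block, so that only libraries given by the same route are set against each other. That scale understates the change of genes with low TPM. Of 20457 genes, 16554 were tested, and a gene was called at a Benjamini-Hochberg adjusted p under 0.05 in limma.

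One feature of the table lies across the comparison. After an ordered block of columns the table holds 12 more columns, here called the appended columns, and they carry 8 of the 15 vancomycin libraries (3 PO, 3 IP, 2 IV), 4 PBS libraries and none of the ampicillin libraries. Why these libraries stand there was not stated in the sources used here. A smooth muscle score, the average of 18 smooth muscle genes on the log2(TPM + 1) scale, ran from 7.53 to 11.5 in the ampicillin libraries and from 7.31 to 11.4 in the vancomycin libraries. It was 9.33 ± 1.40 (SD, n = 6) in Ampicillin-IP against 11 ± 0.334 (n = 4) in Vancomycin-IP, while the order was the other way by mouth, at 10.6 ± 0.789 against 9.86 ± 1.58 (n = 6 each). Defining markers of the labelled tissue were present: the summed surface colonocyte genes had a median of 25360 TPM with ampicillin and 13351 TPM with vancomycin. No marker gene found in the table was at 0 in all 33 libraries, and the 3 pancreas genes in the table had a median summed level of 0.296 TPM with ampicillin and 0.183 TPM with vancomycin.

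With all 3 routes together 180 genes, or 1.09% of those tested, were called. Of these, 116 (0.701%) were higher with ampicillin and 64 (0.387%) were lower, against 2619 genes at an unadjusted p under 0.05. Over all tested genes the median difference was -0.0171 (0.10, -0.11 and -0.026 in the PO, IP and IV groups) and 53% of the signs were negative, and the gene lists below are described beside these values and were not tested. The called differences were mostly small. The median size was 0.52 on the log2 scale among the 116 and 0.43 among the 64, and 11 and 3 of them passed a difference of 1. All 116 and all 64 had the same sign in each route, against 25.7% of all tested genes. This agreement is not independent of the call, since the same libraries gave both. The count moved with the libraries used. It was between 46 and 458 when 1 of the 33 libraries was left out, with Vancomycin-IP replicate 4 and Vancomycin-PO replicate 1 giving these ends, and it was 2 without the appended columns.

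Within single routes few genes passed the test. By mouth 0 genes were called in limma (0%), with 945 at an unadjusted p under 0.05 and a smallest adjusted p of 0.190. In the IV groups 0 genes were called (0%), with 1507 at an unadjusted p under 0.05 and a smallest adjusted p of 0.268. In the IP groups 2 genes were called (0.0121%), with 5098 at an unadjusted p under 0.05. One was Mcm3ap, a factor in the export of messenger RNA, which was higher with ampicillin by 1.27 (limma adjusted p = 0.0110). The other was Arid5a, an RNA-binding regulator of inflammatory transcripts that lies outside the rule for named genes and was picked after its values were seen, and was lower by 1.75 (adjusted p = 0.0389). An F test of whether the difference varied over routes called 0 genes in limma, with 2811 at an unadjusted p under 0.05. A gene missed in one route and not in another is therefore not shown to differ between routes. Libraries of the drugs did not overlap for 65 genes by mouth (0.393%), for 1658 genes in the IP groups (10%) and for 175 in the IV groups (1.06%). Vancomycin had 6, 4 and 5 libraries in these routes against 6 with ampicillin in each. Smaller groups separate more easily, so these shares are not on an equal footing between routes.

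Duoxa2, which encodes the maturation factor that DUOX2 needs, was lower with ampicillin over the 3 routes. In Ampicillin-PO it ran from 0.887 to 26.3 TPM with a median of 10.7, and in Vancomycin-PO from 4.94 to 65.2 TPM with a median of 35.0. In Ampicillin-IP it ran from 7.56 to 30.1 TPM with a median of 9.39, and the 4 Vancomycin-IP libraries held 36.8, 39.1, 60.6 and 129 TPM. These IP groups did not overlap, and neither did the IV groups, where the 6 Ampicillin-IV libraries lay between 2.81 and 9.995 TPM and the 5 Vancomycin-IV libraries held 19.3, 19.7, 38.7, 63.1 and 70.1 TPM. Groups given the drugs by mouth overlapped. Of all tested genes, 10% did not overlap in the IP groups and 1.06% in the IV groups. Over the routes Duoxa2 was lower with ampicillin by 1.96 on the log2 scale (SE 0.34, 95% interval -2.66 to -1.27, limma adjusted p = 0.0069), a 3.90-fold difference, and none of the 18 ampicillin libraries reached the vancomycin median. The 15 PBS libraries had a mean of 47.0 ± 26.5 TPM, close to the vancomycin mean of 44.7 ± 30.7 (n = 15) and above the ampicillin mean of 10.6 ± 7.48 (n = 18). Without the appended columns the difference was -2.14 and the adjusted p 0.0813.

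Duoxa2 lies on mouse chromosome 2 with Duox2 on one side and Duoxa1 on the other, in the order Duox2, Duoxa2, Duoxa1, Duox1. The promoter windows are shown because 2 genes of this cluster, Duoxa2 and Duoxa1, were called lower with ampicillin. Duoxa1 was near the floor, with the limit given below. Each runs from 250 bases before to 50 bases after the transcription start, from RefSeq on GRCm38.p6, an earlier build than the one the reads were quantified on. They are Duoxa2 at chr2:122298650-122298949 on the plus strand, Duox2 at chr2:122298178-122298477 on the minus strand and Duoxa1 at chr2:122313681-122313980 on the minus strand. Capitals mark a match to the letters TGANTCA, a looser form of the AP-1 site that allows any base at its centre.
Duoxa2: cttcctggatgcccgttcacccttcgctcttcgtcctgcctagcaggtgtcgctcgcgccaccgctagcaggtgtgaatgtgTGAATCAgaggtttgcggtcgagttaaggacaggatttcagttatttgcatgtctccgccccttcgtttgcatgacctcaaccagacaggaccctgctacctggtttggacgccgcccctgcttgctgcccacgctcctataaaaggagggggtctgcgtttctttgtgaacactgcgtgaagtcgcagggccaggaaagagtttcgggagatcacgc
Duox2: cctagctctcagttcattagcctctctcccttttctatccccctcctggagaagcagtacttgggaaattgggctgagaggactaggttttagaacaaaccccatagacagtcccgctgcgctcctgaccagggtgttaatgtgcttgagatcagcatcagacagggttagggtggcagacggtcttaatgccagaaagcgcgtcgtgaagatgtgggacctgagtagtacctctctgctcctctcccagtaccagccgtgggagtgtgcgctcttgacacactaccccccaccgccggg
Duoxa1: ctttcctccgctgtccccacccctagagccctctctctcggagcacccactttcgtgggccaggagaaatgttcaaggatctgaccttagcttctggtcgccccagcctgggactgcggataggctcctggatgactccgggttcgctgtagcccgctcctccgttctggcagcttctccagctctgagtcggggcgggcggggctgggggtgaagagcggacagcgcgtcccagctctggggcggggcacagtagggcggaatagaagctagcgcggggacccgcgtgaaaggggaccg
The letters TGANTCA matched at position -168 from the start site of Duoxa2. The base at the centre there is A, where the strict AP-1 site has C or G. Of 32851 promoter windows of this length, 7.81% hold a match to these looser letters on either strand. The NF-kappaB consensus, the E-box CACGTG and the glucocorticoid response element were searched on both strands as well and their letters are not in these 3 windows. Of all windows, 4.51%, 7.15% and 0.0396% hold them. A match describes letters and is no measurement of binding.

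Duox2 and Duoxa1 were looked at after their values were seen. Duox2, the oxidase itself, had a median of 80.9 TPM over the 18 ampicillin libraries, from 12.8 to 230 TPM, and of 147 TPM over the 15 vancomycin libraries, from 26.2 to 330 TPM. The groups overlapped in every route. Its difference of -0.84 (SE 0.33, limma adjusted p = 0.199) did not pass the test. Duoxa1, the partner of the sister oxidase DUOX1, was low in all libraries, from 0 to 0.890 TPM with ampicillin and from 0.228 to 5.08 TPM with vancomycin. It was lower with ampicillin by 0.82 (SE 0.16, limma adjusted p = 0.0125). The filter asked for 1 TPM in at least 4 libraries. No ampicillin library reached that level, so Duoxa1 was tested only through its vancomycin libraries. Nothing in the labels says that the counting used strand, so reads of these adjoining genes may be shared. Nos2, the inducible nitric oxide synthase, had a difference of -1.13 (adjusted p = 0.0735) and did not pass, whereas Gch1, which makes the cofactor that nitric oxide synthases need, was lower by 0.45 (SE 0.11, adjusted p = 0.0436). Of the 9 tested genes on the list of epithelial oxidases 1 was called, Duoxa2, where 1.09% of all tested genes were, and the list's median was -0.26 against -0.0171 over all tested genes.

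**Figure D1:**
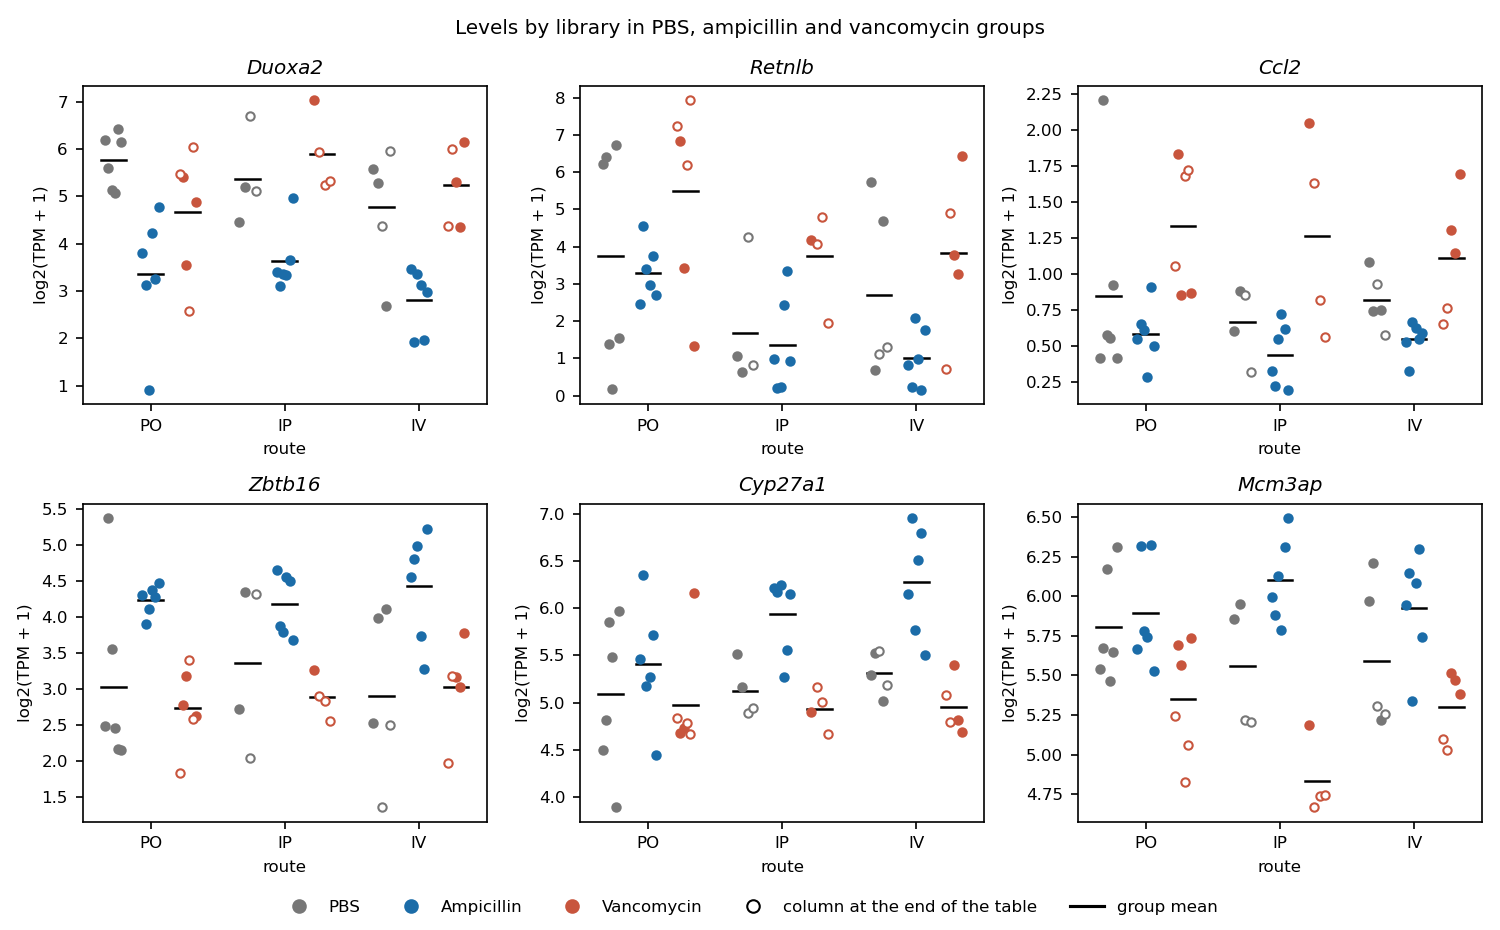
Levels of 6 genes, as log2(TPM + 1), in each PBS (grey), ampicillin (blue) and vancomycin (red) library by route, with group means as bars and open points for the appended columns. Duoxa2 in the IP and IV groups and Zbtb16 in the PO and IP groups show ampicillin and vancomycin libraries that do not overlap.

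Retnlb had the largest difference of the genes named by rule. It encodes RELM-beta, a bactericidal protein that goblet cells secrete. In Ampicillin-PO it ran from 4.45 to 22.4 TPM with a median of 8.24, and in Vancomycin-PO from 1.52 to 243 TPM with a median of 93.4. In Ampicillin-IP it ran from 0.149 to 9.10 TPM with a median of 0.939, and the Vancomycin-IP libraries held 2.84, 15.9, 17.03 and 26.8 TPM. In Ampicillin-IV it ran from 0.118 to 3.26 TPM, and the Vancomycin-IV libraries held 0.634, 8.70, 12.6, 28.7 and 85.8 TPM. At least 1 vancomycin library in each route lay among the ampicillin libraries, so no route separated the drugs. Pooled, Retnlb was lower with ampicillin by 2.46 (SE 0.53, limma adjusted p = 0.0239), and 1 of 18 ampicillin libraries lay above the vancomycin median of 17.03 TPM. The PBS libraries spanned 0.119 to 106 TPM with a median of 1.63, closer to the ampicillin median of 2.81 TPM.

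Other secreted defence genes did not pass the test. Retnlb was the only called gene of the 15 tested on the antimicrobial list (6.67%) and of the 16 tested on the goblet cell list (6.25%). Over all tested genes 1.09% were called. The list medians were -0.18 and -0.027, against -0.0171 over all tested genes. Without the appended columns these medians were -0.082 and 0.20. Reg3g and Reg3b, C-type lectins that act on bacteria, were looked at after their values were seen. Reg3g ran from 0.203 to 63.6 TPM with ampicillin and from 0 to 624 TPM with vancomycin, and Reg3b from 0 to 694 TPM and from 0.147 to 2120 TPM. Their pooled differences of -0.82 (limma adjusted p = 0.680) and -0.27 (adjusted p = 0.931) did not pass.

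The next group concerns monocytes and macrophages. Ccl2 encodes the chemokine that binds CCR2 and draws monocytes from the blood. It was low throughout, from 0.150 to 0.879 TPM in the 18 ampicillin libraries with a median of 0.467, and from 0.478 to 3.14 TPM in the 15 vancomycin libraries with a median of 1.22. Every vancomycin library lay above the ampicillin median and no ampicillin library above the vancomycin median, although the groups overlapped within each route. Ccl2 was lower with ampicillin by 0.71 (SE 0.13, limma adjusted p = 0.00735), and by 0.75, 0.83 and 0.56 in the PO, IP and IV groups. A gene was tested if it reached 1 TPM in at least 4 of the 33 libraries. No ampicillin library did so for Ccl2, which was tested only through its vancomycin libraries. The PBS mean of 0.831 ± 0.807 TPM (n = 15) lay between the ampicillin mean of 0.452 ± 0.185 and the vancomycin mean of 1.497 ± 0.849.

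Ccl7 and Ccl12, chemokines that act on the same receptor, were named after their values were seen. All 3 genes lie on chromosome 11, with Ccl7 next to Ccl2 and Ccl12 between Ccl11 and Ccl8. Ccl7 was lower with ampicillin by 0.52 (SE 0.09, limma adjusted p = 0.0069), at 0.339 ± 0.194 TPM against 0.960 ± 0.410 TPM. Ccl12 was lower by 0.50 (SE 0.10, adjusted p = 0.0218), at 0.329 ± 0.142 TPM against 0.920 ± 0.490 TPM. For both the PBS mean, 0.907 TPM and 0.875 TPM, stood near the vancomycin mean. With ampicillin means this low, Ccl7 and Ccl12 also entered the test only or mainly through vancomycin libraries. Ccl2 and Ccl12 were the 2 genes still called without the appended columns, with differences of -0.87 (limma adjusted p = 0.0187) and -0.68 (adjusted p = 0.0177), while Ccl7 had -0.57 (adjusted p = 0.0667). That fit kept the genes that had passed the filter in all 33 libraries, so the libraries left out had a part in choosing them. On the list of chemokines and NF-kappaB targets Ccl2 was the only called gene of the 14 tested (7.14%, against 1.09% of all tested genes). The list's median was -0.13 against -0.0171 over all tested genes, and 7 of the 14 had a negative sign. The list median was 0.03 with array weights, which give less weight to libraries far from their group.

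Among macrophage markers Adgre1, which encodes F4/80, was lower with ampicillin by 0.58 (SE 0.14, limma adjusted p = 0.0364), from a vancomycin median of 6.53 TPM to an ampicillin median of 4.19 TPM. Mertk, a receptor for the uptake of dying cells on the same list, went the other way, higher by 0.93 (SE 0.22, adjusted p = 0.0364). Of the 16 macrophage genes tested 14 had a negative difference (87.5%, against 53% of all tested genes) and 2 were called (12.5%, against 1.09%), with a list median of -0.29 against -0.0171. The median was -0.072, -0.57 and -0.31 in the PO, IP and IV groups. The complement gene C1qa, looked at after its values were seen, had -0.49 (adjusted p = 0.120) and did not pass. Summed over the 17 macrophage genes in the table the level ran from 243 to 458 TPM with ampicillin and from 243 to 915 TPM with vancomycin. The pooled medians of these sums, 356 TPM with ampicillin and 339 TPM with vancomycin, went the other way from most of the single genes. Their means, 349 TPM and 398 TPM, did not. By route the median sums were 409 against 317 TPM by mouth, 302 against 374 TPM in the IP groups and 334 against 339 TPM in the IV groups. The mean of the macrophage genes on the log2(TPM + 1) scale was 3.42 with ampicillin and 3.62 with vancomycin. In RNA of a whole organ, fewer cells of a type and less RNA per cell cannot be told apart.

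Plaur, Capg and S100a11 were lower with ampicillin as well. Plaur, the receptor of urokinase, was named after its values were seen. It ran from 1.83 to 7.83 TPM over the ampicillin libraries with a median of 3.65, and from 2.31 to 13.8 TPM over the vancomycin libraries with a median of 8.56, a difference of -0.92 (SE 0.19, limma adjusted p = 0.0239). Its PBS median of 3.89 TPM lay with ampicillin. Capg, an actin filament capping protein, ran from 10.7 to 54.9 TPM with ampicillin and from 16.97 to 167 TPM with vancomycin, and was lower by 1.02 (SE 0.22, adjusted p = 0.0239). The 8 vancomycin libraries in appended columns had a Capg median of 62.4 TPM and the other 7 one of 39.1 TPM, and without the appended columns its difference was -0.63 (adjusted p = 0.230). S100a11, a calcium-binding protein, ran from 21.8 to 69.4 TPM with ampicillin and from 55.2 to 137 TPM with vancomycin. It was lower by 0.68 (SE 0.12, adjusted p = 0.0069), and all 15 vancomycin libraries exceeded the ampicillin median of 50.7 TPM.

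Interferon targets were read from 2 lists. On the interferon gamma list 2 of 22 tested genes were called (9.09%, against 1.09% of all tested genes). They were the immunity-related GTPases Irgm2 (-0.47, SE 0.11, limma adjusted p = 0.0352) and Igtp (-0.43, SE 0.11, adjusted p = 0.0483). The list's median was -0.35 against -0.0171 over all tested genes, and 18 of the 22 (81.8%, against 53%) had a negative sign. The median was between -0.30 and -0.41 in the PO, IP and IV groups. On the type I interferon list 2 of 24 were called (8.33%), Ifi27l2a (-0.68, limma adjusted p = 0.0345) and Ifit3b (-0.68, adjusted p = 0.0473). This list had a median of -0.23 and 18 of 24 negative signs (75%). That median was -0.42 by mouth, 0.031 in the IP groups and -0.18 in the IV groups, and -0.068 without the appended columns. Ifit3b has a near-identical neighbour, Ifit3, so the split of reads between them is uncertain. Irgm2 stood at 23.6 ± 6.02 TPM with ampicillin, 32.8 ± 4.84 TPM with vancomycin and 29.9 ± 6.22 TPM with PBS. Gbp2, a guanylate-binding protein looked at after its values were seen, had -0.71 (adjusted p = 0.0986) and did not pass.

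Zbtb16 was the gene with the smallest p-value of the whole comparison. It encodes PLZF, a zinc finger transcription factor that glucocorticoids induce in many tissues and that marks innate-like lymphocytes. In Ampicillin-PO it ran from 13.99 to 21.3 TPM with a median of 18.6, and in Vancomycin-PO from 2.55 to 9.61 TPM with a median of 5.52. In Ampicillin-IP it ran from 11.9 to 24.3 TPM with a median of 17.7, and the Vancomycin-IP libraries held 4.91, 6.16, 6.53 and 8.64 TPM. Neither pair overlapped. In Ampicillin-IV it ran from 8.75 to 36.3 TPM with a median of 24.8, and the Vancomycin-IV libraries held 2.95, 7.20, 8.01, 8.13 and 12.8 TPM, of which the highest lay above the 2 lowest ampicillin libraries. Zbtb16 was higher with ampicillin by 1.41 (SE 0.18, 95% interval 1.04 to 1.77, limma adjusted p = 9.08e-05), a 2.65-fold difference, and all 18 ampicillin libraries lay above the vancomycin median of 6.53 TPM. The routes gave 1.51, 1.29 and 1.40. PBS libraries were spread from 1.56 to 40.6 TPM, a range that covered both drugs. Their median of 4.79 TPM lay nearer the vancomycin median. Averaged over routes on the log2 scale, ampicillin minus PBS was 1.19 and vancomycin minus PBS -0.21, which was not tested. Without the appended columns the difference was 1.18 and the adjusted p 0.0535.

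Of the 15 glucocorticoid targets tested 1, Zbtb16, was called (6.67%, against 1.09% of all tested genes). The list's median was 0.12 against -0.0171 over all tested genes. It was 0.72 in the IP groups and 0.037 by mouth. Fkbp5, a co-chaperone of the glucocorticoid receptor, was looked at after its values were seen. It had a median of 146 TPM with ampicillin and 49.8 TPM with vancomycin, with differences of -0.09 by mouth, 2.31 in the IP groups and 1.25 in the IV groups, and its pooled difference of 1.07 (SE 0.36, limma adjusted p = 0.125) did not pass. Tsc22d3, the glucocorticoid-induced leucine zipper, looked at in the same way, had -0.23 (adjusted p = 0.455).

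**Figure D2:**
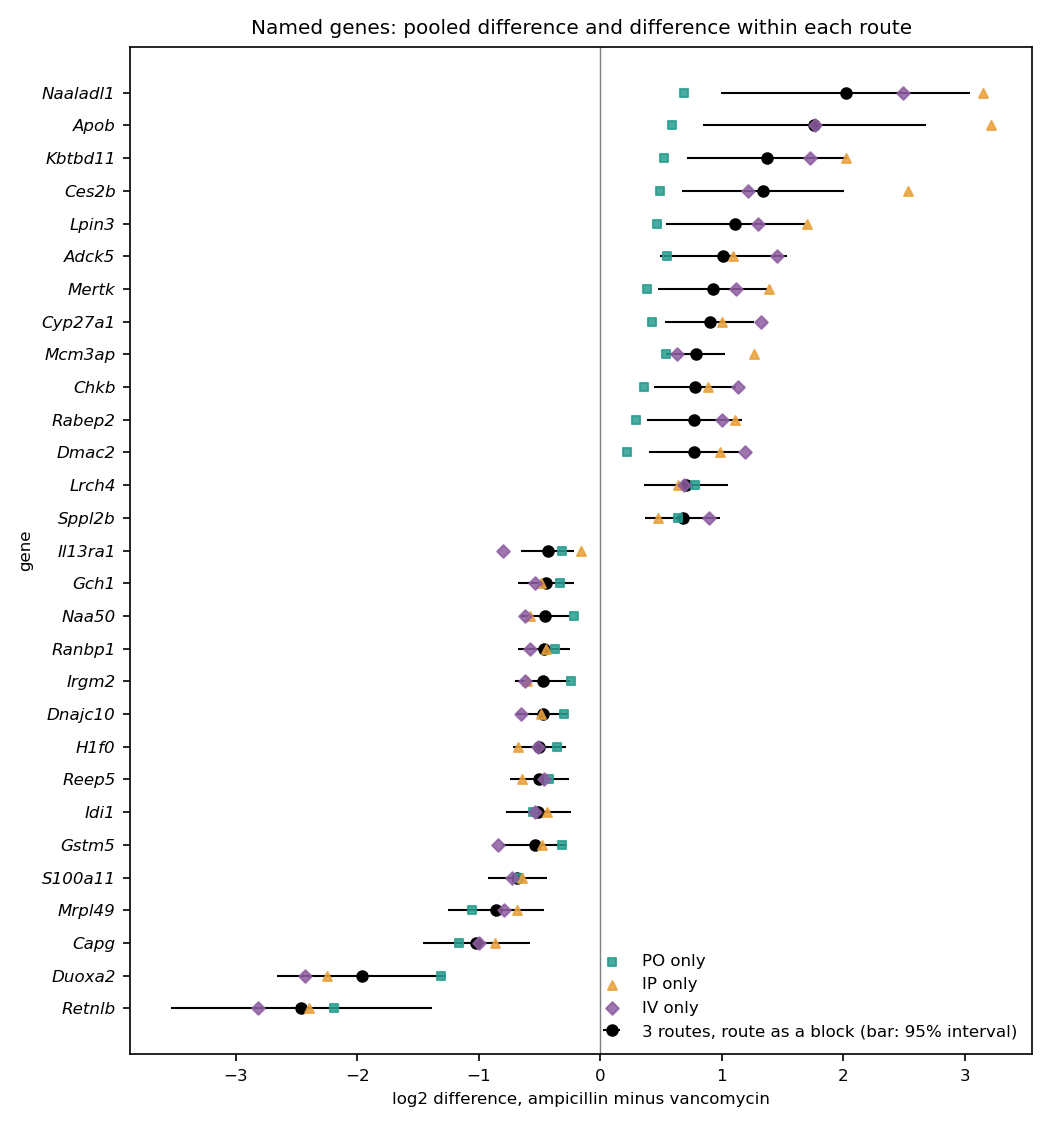
Log2 difference, ampicillin minus vancomycin, of 29 genes named by rule, with the pooled value and its 95% interval (black) and the value within each route (colours). All 29 lie on 1 side of 0 in every route, and for Naaladl1, Apob and Ces2b the IP value is the farthest from 0 and the PO value the nearest.

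Cyp27a1, the mitochondrial sterol 27-hydroxylase, was among the genes named by rule on the higher side. It ran from 20.8 to 123 TPM over the ampicillin libraries with a median of 61.7, and from 24.4 to 70.3 TPM over the vancomycin libraries with a median of 27.3. The IP and IV groups did not overlap, which held for 10% and 1.06% of all tested genes. It was higher with ampicillin by 0.90 (SE 0.18, limma adjusted p = 0.0165), above the vancomycin median in 17 of 18 libraries. Abcg5 and Abcg8 form the transporter that returns sterols to the gut lumen and were named after their values were seen. Abcg8 was higher by 1.55 (SE 0.32, adjusted p = 0.0239), with a median of 4.70 TPM against 0.713 TPM. Abcg5 was higher by 1.83 (SE 0.44, adjusted p = 0.0387), with a median of 7.95 TPM against 1.40 TPM. For both the PBS median, 3.31 TPM for Abcg8 and 6.93 TPM for Abcg5, stood nearer the ampicillin median. The bile acid list held 0 called of 9 tested genes in limma, with 3 at an unadjusted p under 0.05. Its median was 0.59 against -0.0171 over all tested genes, and 0.056, 1.42 and 0.73 in the PO, IP and IV groups. It was 0.21 without the IP libraries and 0.24 with the smooth muscle score as a covariate. The list of PPAR targets and fat oxidation held 0 of 17, with 1 at an unadjusted p under 0.05 and a median of 0.022.

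Of the 24 cholesterol synthesis genes tested, 2 were called, both lower with ampicillin: Fdft1 (squalene synthase, -0.39, SE 0.09, limma adjusted p = 0.0364) and Idi1 (isopentenyl diphosphate isomerase, -0.51, SE 0.13, adjusted p = 0.0490). These are 8.33% of the list, against 1.09% of all tested genes. The list's median was -0.24 against -0.0171, and 19 of the 24 (79.2%, against 53%) had a negative sign. The median was -0.28, -0.19 and -0.26 in the PO, IP and IV groups. For the 2 called genes the mean of each drug lay under that of PBS, which was not tested here. Fdft1 stood at 52.1 ± 7.46 TPM with ampicillin, 69.6 ± 16.9 TPM with vancomycin and 94.9 ± 30.3 TPM with PBS. Hmgcs1 (-0.40, adjusted p = 0.0539) and Sqle (-0.34, adjusted p = 0.0815), looked at after their values were seen, did not pass.

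The largest differences by rule on the higher side were those of Naaladl1 and Apob. Naaladl1, a brush border peptidase, ran from 5.14 to 176 TPM with ampicillin and from 2.85 to 47.8 TPM with vancomycin, a difference of 2.02 (SE 0.50, limma adjusted p = 0.0431). Apob, the scaffold protein of lipoproteins, ran from 19.6 to 1069 TPM against 5.51 to 125 TPM, a difference of 1.76 (SE 0.45, adjusted p = 0.0479). Kbtbd11, a Kelch family protein (1.37), Ces2b, a carboxylesterase (1.33), and Lpin3, a phosphatidate phosphatase (1.11), followed. The drugs overlapped for all 5 genes by mouth, and for 4 of the 5, all but Kbtbd11, the IP groups did not overlap. Over all tested genes 10% did not overlap in the IP groups and 0.393% by mouth. The 5 were chosen for large differences in these same libraries. Each of the 5 lost its call when any of several single libraries was left out: Apob was called in 9 of 33 such fits and Naaladl1 in 10, with adjusted p up to 0.0877 and 0.0808. Their differences were largest in the IP groups, 3.15 for Naaladl1 and 3.21 for Apob, where the smooth muscle genes were lower with ampicillin by a median of 1.67. They were 0.69 and 0.59 by mouth, where the smooth muscle median was 0.68. With the smooth muscle score as a covariate the differences were 1.61 for Naaladl1 and 1.45 for Apob (limma adjusted p = 0.0132 and 0.0228), against 2.02 and 1.76 without it, and the number of called genes rose from 180 to 530. The part of tissue makeup in these differences was not tested.

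Among the other genes named by rule, Mcm3ap was higher over the routes by 0.78 (SE 0.12, limma adjusted p = 0.00213), at 63.3 ± 13.7 TPM against 36.7 ± 9.24 TPM, with all 18 ampicillin libraries above the vancomycin median. Its 8 vancomycin libraries in appended columns had a median of 29.5 TPM and the other 7 one of 44.7 TPM, and without the appended columns the difference was 0.45 (adjusted p = 0.192). Chkb, choline kinase beta, was higher by 0.78 (SE 0.17, adjusted p = 0.0239). Adck5, Rabep2, Dmac2, Lrch4 and Sppl2b, a set with no shared role, were higher by 0.68 to 1.01. Of these Lrch4 went from 0.71 to 0.21 (unadjusted p = 0.185, adjusted p = 0.436) without the appended columns. On the lower side, Mrpl49 of the mitochondrial ribosome was lower by 0.86 (SE 0.19, adjusted p = 0.0284), Dnajc10, a disulfide reductase of the endoplasmic reticulum, by 0.48, Naa50, an amino-terminal acetyltransferase, by 0.46 and Psat1 of serine synthesis by 0.62. Gstm5, Reep5, H1f0, Ranbp1 and Il13ra1, the last a receptor chain for interleukins 4 and 13, were lower by 0.43 to 0.54, and Bdh1, a ketone body enzyme on the butyrate list, by 0.30. Without the appended columns H1f0 went from -0.50 to -0.30.

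The phosphate transporters were high in some libraries of both drugs. Slc20a1 had a median of 382 TPM with ampicillin, from 148 to 1655 TPM, and 136 TPM with vancomycin, from 47.3 to 1143 TPM. Slc34a2 had medians of 60.4 TPM and 18.2 TPM, against 10.1 TPM with PBS. Both were looked at after their values were seen. Their differences of 1.52 (SE 0.44, limma adjusted p = 0.0749) and 1.27 (SE 0.38, adjusted p = 0.0860) did not pass.

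Lists that describe tissue makeup held few called genes. All 18 smooth muscle genes and all 16 fibroblast genes had a negative sign with a median of -0.45 and -0.44 against -0.0171 over all tested genes, and none was called in limma, with 0 and 3 at an unadjusted p under 0.05. The smooth muscle median was 0.06 without the IP libraries and -0.75 without the appended columns. The 18 surface colonocyte genes had a median of 0.27, which was 1.42 in the IP groups and -0.37 by mouth, and the 17 B cell genes one of 0.41, which was 1.37 by mouth and -0.24 in the IP groups. None of these was called, with 3 and 0 at an unadjusted p under 0.05. Transcripts of the mitochondrial genome took 10.5 ± 4.32% of the TPM with ampicillin and 9.27 ± 2.75% with vancomycin. No member of the heat shock list was called in limma, with 4 of 12 at an unadjusted p under 0.05. All 12 had a negative pooled sign with a median of -0.31, but the median was 0.14 by mouth, -0.78 in the IP groups and -0.33 in the IV groups. It was -0.076 without the IP libraries and -0.17 with the smooth muscle score as a covariate.

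**Figure D3:**
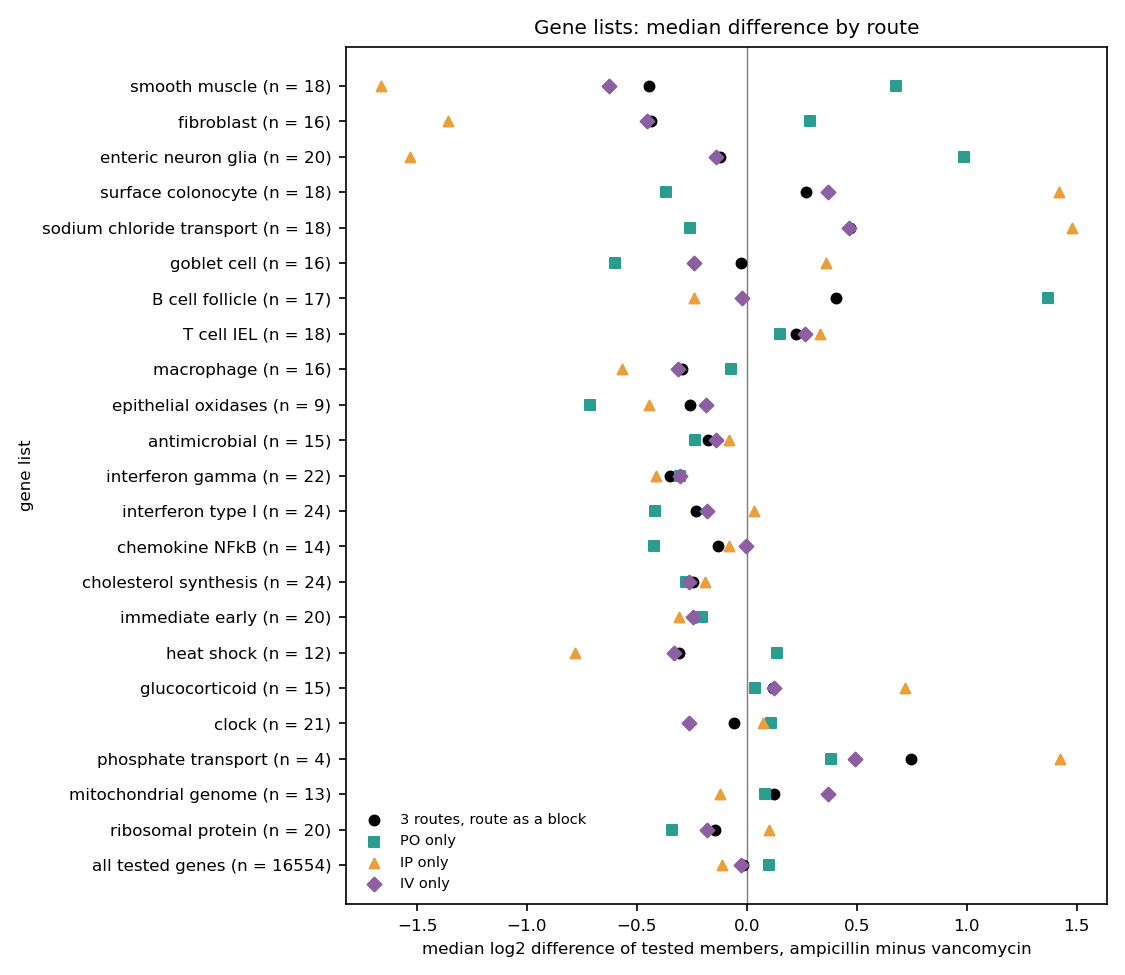
Median log2 difference, ampicillin minus vancomycin, over the tested genes of each list, pooled (black) and within each route (colours). The IP value of smooth muscle lies at -1.67 and that of surface colonocytes at 1.42, while the 3 route values of the interferon gamma and cholesterol synthesis lists lie close together.

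The position of PBS differed between the directions. Averaged over libraries, PBS lay between the drugs for 89 of the 116 genes higher with ampicillin and for 39 of the 64 lower ones. It was nearer ampicillin for 71 of the 116 and for 34 of the 64. These positions are a description and were not tested. Genes chosen for a gap between the drugs can have PBS inside that gap through the choice itself. The share over all tested genes was not determined. Gene class differed between the directions. Predicted or unnamed gene models made up 31 of the 116 (26.7%) and 5 of the 64 (7.81%), against 8.21% of all tested genes. The longest annotated transcript had a median GC content of 52.6% among the 116, 46.1% among the 64 and 49.9% over all tested genes.

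Without the 8 vancomycin libraries in appended columns the median difference of the 116 and the 64 genes went from 0.52 to 0.50 and from -0.43 to -0.43. These genes were chosen for their difference in all 33 libraries, 25 of which are used again here, so their kept signs are largely fixed by that choice. The difference was smaller by over 1.5 times for 14 of the 180, among them the named genes Lrch4, Mcm3ap, Capg and H1f0, and larger by over 1.5 times for 0. At the adjusted threshold 2 genes, Ccl2 and Ccl12, were called, both near the floor and tested only through vancomycin libraries. Because no ampicillin library lies in those columns, whatever they share cannot be told apart from vancomycin in these 8 libraries.

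**Figure D4:**
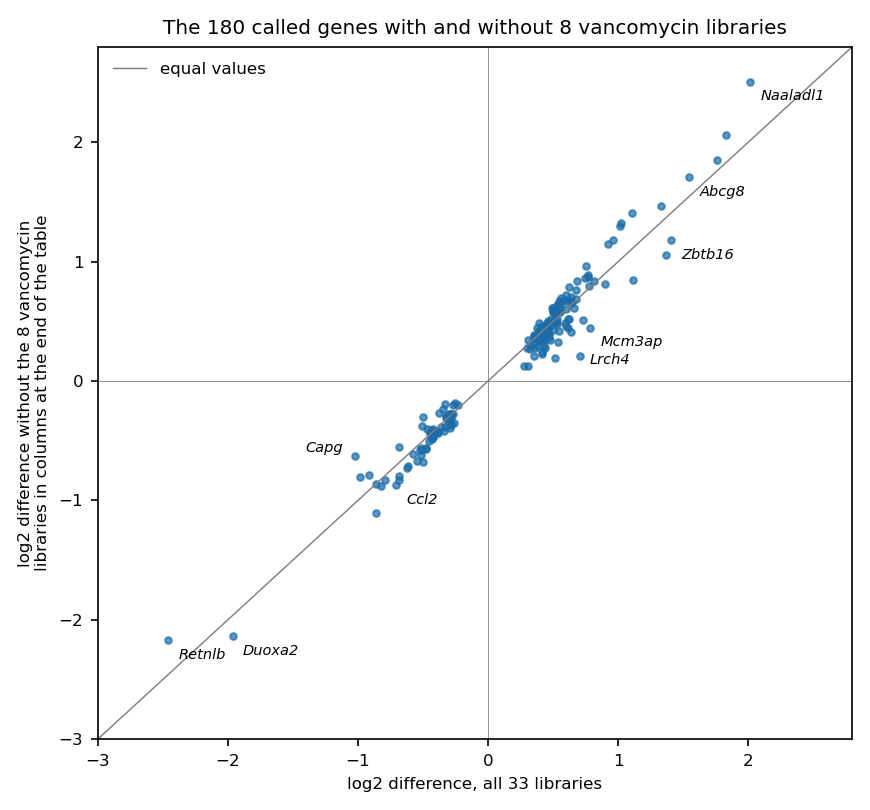
Log2 difference of the 180 called genes in all 33 libraries (x axis) against that without the 8 vancomycin libraries in appended columns (y axis), with the line of equal values. For 14 genes, Lrch4, Mcm3ap and Capg among them, the y value is smaller in size than the x value by over 1.5 times.

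Of the 44 called genes named here, 16 were called in each of the 33 fits that left out 1 library. They were Zbtb16, Mcm3ap, Cyp27a1, Chkb and Abcg8 on the higher side and Duoxa2, Duoxa1, Retnlb, Ccl2, Ccl7, Ccl12, Capg, S100a11, Plaur, Dnajc10 and Naa50 on the lower side. The other 28 lost their call without at least 1 library. Of the 16, Duoxa1, Ccl2, Ccl7 and Ccl12 were near the floor and entered the test only or mainly through vancomycin libraries.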

How the data were processed

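The authors deposited 1 table of TPM values for all libraries. Trimming by Trim Galore 0.6.2 with cutadapt 3.5 and quantification by Salmon on GRCm39 are named in the submitters' processing notes, which give no Salmon version. Per the labels' protocols, 1000 ng of RNA was selected for poly(A) and sequenced as single-end reads of 75 cycles. TPM keeps no depth, so sequencing depth is unknown and no count test was run.

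Tests ran on log2(TPM + 1) of the deposited values, not scaled again. Genes with a TPM of 1 or more in at least 4 of the 33 libraries were tested with limma 3.58.1 (trend and robust options) under R 4.3.3, with route and drug as terms. Differences within routes and the F test over routes came from the same model with the interaction of route and drug. Benjamini-Hochberg adjustment ran over all tested genes.

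The genes named are the 15 largest differences in each direction among called genes whose mean TPM reached the median of tested genes (20.3), without predicted gene models, pseudogenes and antigen receptor segments, the genes called within a route, and up to 4 called members of each of 53 gene lists. One result under this rule is not reported here. Other genes are marked as chosen after their values were seen. Members, lists and rules were chosen with earlier results of these data known. Lists are described by counts and medians, and no list was tested.

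The GENCODE M21 annotation of GRCm38 served for transcript length and GC content. Gene order came from RefSeq, and promoters came from RefSeq on GRCm38.p6. Transcript GC was read from the longest coding transcript, for 99.8% of the tested genes. The scripts were tested on simulated data. The alternatives were another pseudocount, no filter, 2 other scalings, array weights, a fit of all 97 libraries, tissue scores as covariates, blocks, each route, the appended columns and each library left out.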

Additional observations from a re-analysis of the deposited data

Results flagged for a closer look

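In each group of 4 to 6 libraries the highest and lowest values of 61 genes were checked for a wide gap to the rest (Dixon's test at 95%). Of 366 gene and group pairs, 22 had such a library, and chance alone flags about 1 in 20 groups. Ampicillin-IP replicate 6 gave 9 of them. There Apob stood at 1070 TPM against a group median of 162, Lpin3 at 91.4 against 37.3, Mertk at 152 against 59.7, Rabep2 at 66.4 against 35.7 and Duoxa2 at 30.1 against 9.39. The same library was low for S100a11 at 21.8 TPM against 48.8, Reep5 at 32.0 against 84.5, Ranbp1 at 21.5 against 46.8 and Abcg8 at 1.5 against 9.33.

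Vancomycin-PO replicate 6 was high for Cyp27a1 at 70.3 TPM against a median of 26.1, Abcg5 at 10.3 against 1.46 and Sqle at 96.6 against 58.2. Vancomycin-IP replicate 1 was high for Mcm3ap at 35.5 TPM against 25.8 and Sqle at 86.7 against 57.0, and replicate 3 of that group was low for Il13ra1 at 66.0 against 81.4. Ces2b stood at 49.4 TPM in Vancomycin-IV replicate 1 against a median of 7.65. In the ampicillin groups Dmac2 stood at 29.9 TPM in Ampicillin-IV replicate 3 against 57.9, Fdft1 at 73.2 in Ampicillin-PO replicate 1 against 51.2, and Nos2 at 7.58 in Ampicillin-PO replicate 6 against 1.29. Ampicillin-PO replicate 3 stood at 206 TPM for Bdh1 against a median of 132 and at 12.8 for Duox2 against 98.0. Npas2, a clock gene, stood at 27.1 TPM in Ampicillin-IP replicate 5 against 33.9.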

How the results depend on the processing

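The pooled count of 180 called genes moved by over 1.5 times under most alternatives, while the sign of every called gene named held in all of them. It was 155 with a pseudocount of 10, 136 without a filter, 297 (187 higher, 110 lower) with quantile normalization, 292 (225 higher, 67 lower) after rescaling without the mitochondrial genome, and 407 in a fit of all 97 libraries, where the IP groups gave 1270. With the smooth muscle score as a covariate it was 530, with 2, 7 and 1 called in the PO, IP and IV groups, and with the muscle and posterior Hox scores 1108, with 2, 9 and 2. Array weights gave 6781 pooled, 5, 9720 and 2896 in the PO, IP and IV groups, and 8449 for the F test over routes, against 0 to 1 under every other setting. Quantile normalization gave 24 in the IP groups. Without the libraries in appended columns the pooled count was 2, the IP groups gave 0, the IV groups 2 and the F test 1. It was 1409 without the PO libraries (65 in the IP groups), and 1 without the IP libraries and 1 without the IV libraries (1 by mouth), fits that hold fewer libraries. The cause of these moves was not tested. Replicate numbers were not taken to pair libraries, because not every pair passed 0.1: over 15 pairs the correlation of deviations ran from -0.65 to 0.77 by title number, with 9 pairs over 0.1, and from -0.62 to 0.75 by library number, with 6 over 0.1. In the IV groups the title numbers gave 0.072 to 0.77, and 4 of 5 ampicillin libraries correlated best with the vancomycin library of their number, a hint from the data and not from the design. With the replicate block by title number 1 gene was called, by library number 2, and 0 within the IP groups by either.

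With 1 of 33 libraries left out the pooled count ran from 46 to 458, the PO count from 0 to 1, the IP count from 0 to 2163 (without Ampicillin-IP replicate 4), the IV count from 0 to 4 and the F test count stayed at 0. In 22 of these fits the pooled count moved by over 1.5 times. Without Ampicillin-PO replicates 2, 3 and 5 it was 62, 360 and 48. Without Ampicillin-IP replicates 1 and 2 it was 100 and 106. Without Ampicillin-IV replicates 1, 2, 4 and 5 it was 105, 76, 67 and 60. Without Vancomycin-PO replicates 1, 2, 3 and 6 it was 458, 73, 94 and 311. Without Vancomycin-IP replicates 1 to 4 it was 71, 81, 102 and 46. Without Vancomycin-IV replicates 1 to 5 it was 66, 95, 103, 117 and 56. Uncalled Reg3g and Reg3b changed sign without the PO libraries, to 0.28 and 1.30. Reg3b also did without Ampicillin-PO replicates 1 and 3 (0.0024 and 0.025) and Vancomycin-PO replicates 1, 2 and 5 (0.13, 0.026 and 0.19), within a range of -0.64 to 0.19.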
